A study of Homo sapiens with 4 samples.

Results

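The anaphase-promoting complex, or APC/C, is the ubiquitin ligase that marks securin and the mitotic cyclins for destruction, so that sister chromatids separate and the cell leaves mitosis. The mRNA levels of 10 of its core subunits were examined here in cells with and without knockdown of SKA3, a kinetochore protein of the SKA complex that holds chromosomes to spindle microtubules. The members were ANAPC1, ANAPC2, ANAPC4, ANAPC5, ANAPC7, ANAPC10, ANAPC11, CDC16, CDC23 and CDC27, listed by name as core subunits with earlier results of these data known. All 10 had a row in the deposited table of 28729 genes, and all 10 passed the filter of a mean of at least 1 FPKM (fragments per kilobase of exon, scaled for the number of mapped fragments), which left 12645 genes.

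The RNA came from TU-177, an established laryngeal squamous cell carcinoma line. The group sh_NC, with 2 libraries, carried a negative-control shRNA, and the group sh_SKA3, with 2 libraries, carried an shRNA against SKA3. By the labels, the shRNA was delivered by lentivirus in both groups, puromycin was given from 48 hours after transduction, and RNA was taken from the resistant cells as a pool. The study's methods describe stable lines made with lentiviral shRNA and a week of puromycin, and SKA3 knockdown by siRNA. They also describe stable SKA3 knockdown by Cas9 and sgRNAs with puromycin, and do not say which route gave the cells sequenced. The labels do not say how many shRNA sequences were used, how long selection lasted, or whether the libraries of a group came from separate transductions, so the p-values measure only the spread between these samples.

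The library sizes behind the values were between 9015056 and 11966130 reads. SKA3 itself was at 9.40 and 9.64 FPKM in sh_NC and at 3.77 and 4.12 FPKM in sh_SKA3, which is -1.09 on the log2 scale (SE 0.0749, adjusted p = 0.0081, limma). Of the epithelial markers listed, KRT17, SFN, DSP and EPCAM had a mean of at least 1 FPKM. KRT5, KRT14 and KRT6A were at or near 0, and TP63 and CDH1 were below 1 FPKM in every library. The summed level of the 9 epithelial markers in the table was 261 and 274 FPKM in sh_NC and 233 and 258 FPKM in sh_SKA3. Among them KRT17 passed as lower (45.6 and 49.1 FPKM in sh_NC, 29.4 and 35.7 FPKM in sh_SKA3, adjusted p = 0.0396, limma). The summed level of 7 fibroblast markers was 15.4 and 15.8 FPKM in sh_NC and 8.89 and 9.59 FPKM in sh_SKA3. Most of that difference was DCN, at 8.40 and 8.36 FPKM in sh_NC and 2.48 and 2.35 FPKM in sh_SKA3 (adjusted p = 0.0065, limma), while PDGFRB was at 2.88 and 2.46 FPKM in sh_NC and 3.19 and 4.13 FPKM in sh_SKA3 (adjusted p = 0.166, limma). COL1A1 was lower too, at 3.22 and 3.99 FPKM in sh_NC and 2.71 and 2.66 FPKM in sh_SKA3 (adjusted p = 0.140, limma). COL3A1, below the filter and not tested, was at 0.797 and 0.765 FPKM in sh_NC and 0.476 and 0.361 FPKM in sh_SKA3. Of these 7, COL1A1, DCN and PDGFRB had a mean of at least 1 FPKM, and COL1A2, LUM and THY1 were at or near 0. Immune and endothelial markers had no member with a mean of 1 FPKM, with sums of at most 1.38 and 0.0968 FPKM. The part of these marker differences in the results on the APC/C was not tested.

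The APC/C is built from 3 modules. The catalytic arm holds the cullin-like ANAPC2, the RING protein ANAPC11, which docks the ubiquitin-loaded E2 enzyme, and ANAPC10, which helps to bind the substrate. The TPR arm is a stack of tetratricopeptide repeat proteins, CDC27, CDC16, CDC23 and ANAPC7, which form pairs of themselves and, chiefly through CDC27, hold the tail of the coactivators. The platform of ANAPC1, ANAPC4 and ANAPC5 joins both arms. In mitosis the complex works with the coactivator CDC20, which the spindle checkpoint blocks until every kinetochore is attached, and from late mitosis into G1 it works with FZR1.

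Of the 10 members, 1 passed the test as higher in sh_SKA3 (CDC27) and 0 passed as lower (limma on log2(FPKM + 1), adjusted p below 0.05). Over all 12645 genes tested, 6.16% passed as higher and 6.11% as lower, so the members' count lies close to the share of all genes. At an unadjusted p below 0.05 the members counted 2 higher (CDC27 and ANAPC1) and 0 lower, beside 16.2% and 15.1% of all genes. Both sh_SKA3 libraries lay above both sh_NC libraries in 2 members, the same CDC27 and ANAPC1, and below them in 1, ANAPC11, beside 32.3% and 29.2% of all genes. With limma voom on whole reads recovered from the FPKM values, 2 members were called higher, again CDC27 and ANAPC1, and 0 lower, beside 13.5% and 12.1% of all genes. The median log2 fold change of the 10 members was 0.05, beside 0.01 over all genes tested, and 8 of the 10 had a positive value, beside 51.6% of all genes. Of these 8, the sign of ANAPC2, CDC16, CDC23, ANAPC4 and ANAPC5 turned under at least 1 alternative or without 1 library. An exact permutation test of 2 against 2 libraries cannot go below p = 0.333, so single genes were tested only in the fit across all genes. In bulk RNA a different level per cell and a different share of cells at the stage that makes a transcript cannot be told apart.

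**Figure D1:**
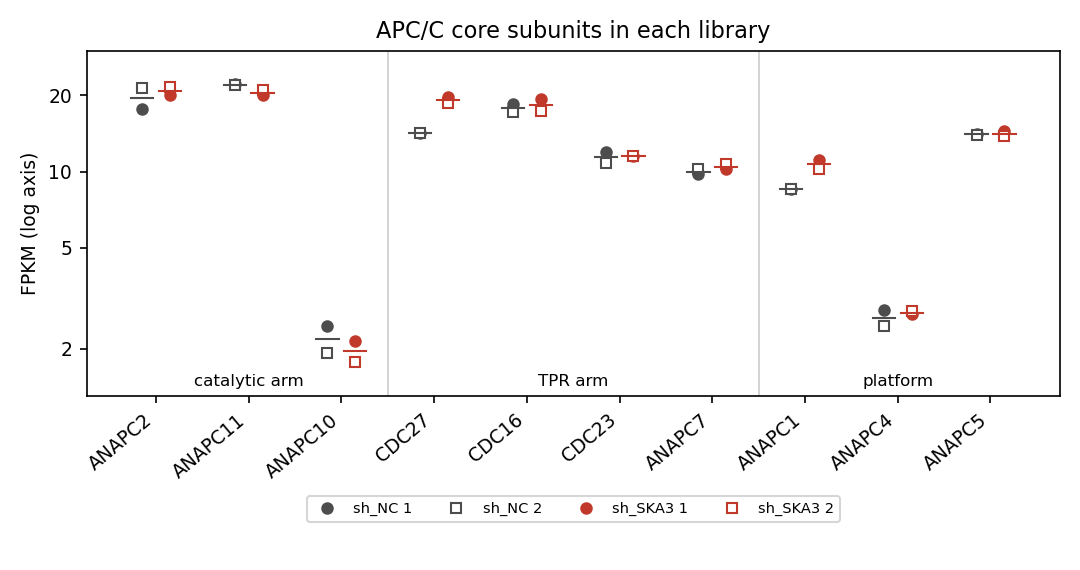
FPKM of each of the 10 subunits in each library on a log axis, with sh_NC in grey, sh_SKA3 in red, replicate 1 as filled circles, replicate 2 as open squares and group means as bars. The groups separate upwards in CDC27 and ANAPC1 and downwards in ANAPC11, while ANAPC4 and ANAPC10 lie far below the other 8.

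The subunits work at fixed numbers of copies in the complex, yet their FPKM values spanned about an order of magnitude in every library. The ratio of the highest to the lowest member was 9.03 and 11.5 in sh_NC and 9.35 and 12.2 in sh_SKA3. In sh_NC the order of mean FPKM was ANAPC11 (22.0), ANAPC2 (19.5), CDC16 (17.8), CDC27 (14.2), ANAPC5 (14.1), CDC23 (11.4), ANAPC7 (10.0), ANAPC1 (8.53), ANAPC4 (2.65) and ANAPC10 (2.18). The ranges of the 2 libraries overlapped only between the neighbours ANAPC2 and CDC16 in this order. In sh_SKA3 CDC27 stood in the third place at 19.2 FPKM, with ranges overlapping those of CDC16 at 18.4 FPKM, and ANAPC1 at 10.7 FPKM overlapped with ANAPC7 at 10.5 FPKM. ANAPC2 and ANAPC11, at 20.8 and 20.5 FPKM, also overlapped there. FPKM is scaled for a gene length. For CDC27 (6824 bases), ANAPC7 (6009), ANAPC4 (7494) and ANAPC5 (12304) it equalled all annotated exon bases together, which can exceed any 1 transcript. The order of the subunits and the ratios between them therefore depend on the annotation, and levels of different subunits are only roughly comparable.

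The TPR arm held the member that passed the test. CDC27 (ENSG00000004897; GRCh38 chromosome 17, 47117703 to 47189422, minus strand), the subunit that receives the coactivator tail, was at 14.2 and 14.2 FPKM in sh_NC and at 19.8 and 18.6 FPKM in sh_SKA3. These values rest on 1162 and 875 recovered reads in sh_NC and on 1374 and 1498 in sh_SKA3. The groups did not overlap, and the mean rose 1.35-fold, from 14.2 to 19.2 ± 0.827 FPKM (SD, n = 2). The log2 fold change was 0.41 (95% interval 0.24 to 0.57, SE 0.0637, adjusted p = 0.0253, limma), and 6.94% of the genes tested had a larger one. Over 10 alternatives that kept all 4 libraries the log2 fold change stayed between 0.39 and 0.44 and passed the threshold in 8, with an adjusted p between 0.00028 and 0.0659. Counting error alone, the FPKM over the square root of its reads, was 0.417 and 0.481 FPKM for CDC27 in the sh_NC libraries, whose values lay closer together than that (SD 0.0049 FPKM). CDC27 missed the threshold without the filter on low values (adjusted p = 0.0659) and without the mean-variance trend (adjusted p = 0.0550). Without any 1 of the 4 libraries it also missed it, with a log2 fold change between 0.37 and 0.45 and an adjusted p of at least 0.0874.

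The other 3 members of the TPR arm did not pass. CDC16 (ENSG00000130177; chromosome 13, 114234887 to 114272723, plus strand) was at 18.5 and 17.2 FPKM in sh_NC and at 19.4 and 17.4 FPKM in sh_SKA3, with groups that overlapped (log2 fold change 0.04, interval -0.17 to 0.25, adjusted p = 0.767, limma). CDC23 (ENSG00000094880; chromosome 5, 138187648 to 138213343, minus strand) was at 11.9 and 10.8 FPKM in sh_NC and at 11.5 and 11.5 FPKM in sh_SKA3, again with overlap (log2 fold change 0.02, interval -0.17 to 0.20, adjusted p = 0.893, limma). ANAPC7 (ENSG00000196510; chromosome 12, 110372900 to 110403730, minus strand) was at 9.82 and 10.2 FPKM in sh_NC and at 10.2 and 10.8 FPKM in sh_SKA3 (log2 fold change 0.06, interval -0.11 to 0.23, adjusted p = 0.593, limma). For these 3 the upper bounds of the intervals lay below the CDC27 estimate of 0.41, and the difference between members was not itself tested. Within the arm, CDC27 was therefore at 0.770 and 0.829 times the level of CDC16 in sh_NC and at 1.02 and 1.07 times in sh_SKA3. Its ratio to CDC23 was 1.195 and 1.312 in sh_NC and 1.72 and 1.62 in sh_SKA3, and its ratio to ANAPC7 was 1.45 and 1.40 against 1.94 and 1.73. Each ratio was higher in both sh_SKA3 libraries, which follows from the values above, and the pairs were chosen after these had been seen.

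The platform showed a second transcript with groups that did not overlap. ANAPC1 (ENSG00000153107; chromosome 2, 111611639 to 111884690, minus strand), the largest subunit and the scaffold between the arms, was at 8.53 and 8.53 FPKM in sh_NC and at 11.2 and 10.2 FPKM in sh_SKA3, on 1360, 1025, 1512 and 1602 reads. Its sh_NC libraries too lay closer together (SD 0.0024 FPKM) than counting error of 0.231 and 0.267 FPKM. The mean was 1.25-fold higher, at 10.7 ± 0.675 FPKM (SD, n = 2) in sh_SKA3 against 8.53 FPKM. That is 0.29 on the log2 scale (interval 0.11 to 0.48, SE 0.0723, adjusted p = 0.0633, limma), which missed the threshold. It passed in 2 of 10 alternatives with all libraries, with the filter raised to 5 FPKM (adjusted p = 0.0383) and by limma voom on recovered reads (adjusted p = 0.0038), and was as high as 0.134 in the others. ANAPC5 (ENSG00000089053; chromosome 12, 121308245 to 121399896, minus strand), a repeat protein of the platform, was at 14.1 and 14.0 FPKM in sh_NC and at 14.4 and 13.8 FPKM in sh_SKA3. Its log2 fold change of 0.00 had the interval -0.16 to 0.16 (adjusted p = 0.978, limma), and its sign turned under 3 of the 10 alternatives with all libraries. ANAPC4 (ENSG00000053900; chromosome 4, 25377213 to 25418498, plus strand) was low throughout, at 2.83 and 2.46 FPKM in sh_NC and at 2.73 and 2.81 FPKM in sh_SKA3, on 166 to 254 reads (log2 fold change 0.05, interval -0.22 to 0.32, adjusted p = 0.785, limma). The ratio of ANAPC1 to ANAPC5 was 0.604 and 0.610 in sh_NC and 0.774 and 0.740 in sh_SKA3.

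**Figure D2:**
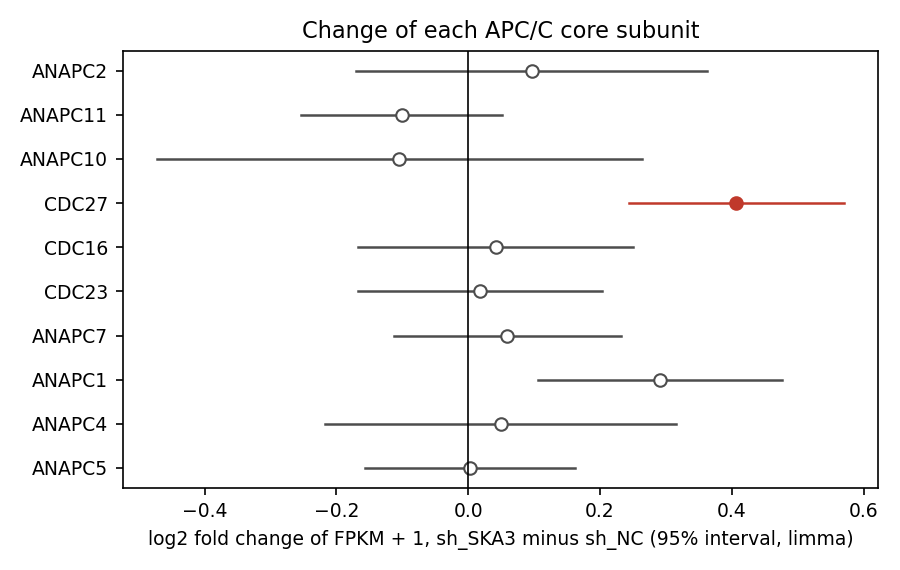
Log2 fold change of FPKM + 1, sh_SKA3 minus sh_NC, for each subunit with its 95% interval from limma, filled red where the adjusted p was below 0.05. CDC27 at 0.41 is the filled point, the interval of ANAPC1 (0.11 to 0.48) also lies above 0, and the intervals of the other 8 include 0.

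In the catalytic arm 0 of 3 members passed the test. ANAPC2 (ENSG00000176248; chromosome 9, 137174784 to 137188549, minus strand) was at 17.7 and 21.3 FPKM in sh_NC and at 20.1 and 21.6 FPKM in sh_SKA3, so that the sh_NC libraries spanned most of the range (log2 fold change 0.10, interval -0.17 to 0.36, adjusted p = 0.573, limma). ANAPC11 (ENSG00000141552; chromosome 17, 81890790 to 81900991, plus strand) was at 22.1 and 21.9 FPKM in sh_NC and at 20.1 and 20.9 FPKM in sh_SKA3. It was lower in both sh_SKA3 libraries, with -0.10 on the log2 scale (interval -0.25 to 0.05, adjusted p = 0.309, limma). ANAPC10 (ENSG00000164162; chromosome 4, 144831908 to 145098541, minus strand) had the lowest level of the 10, at 2.45 and 1.92 FPKM in sh_NC and at 2.15 and 1.77 FPKM in sh_SKA3, on 53 to 90 reads. Its interval was the widest (-0.47 to 0.26 around -0.10, adjusted p = 0.664, limma) and does not exclude a fall of the size of the CDC27 difference. The ratio of ANAPC11 to ANAPC2 was 1.25 and 1.03 in sh_NC and 1.0 and 0.968 in sh_SKA3. The higher sh_NC ratio came from the library with the lower ANAPC2 value, and the other lay close to the sh_SKA3 ratios.

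**Figure D3:**
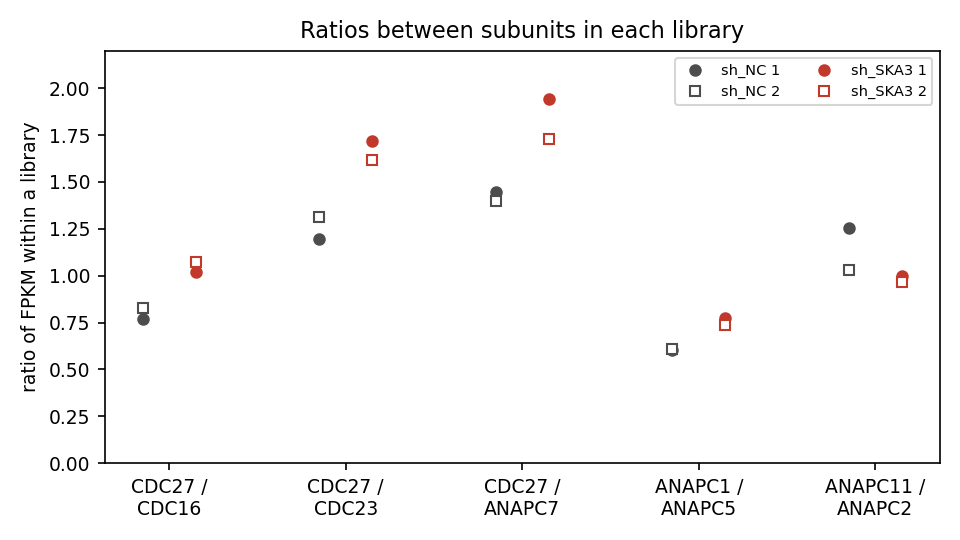
Ratio of FPKM between pairs of subunits within each library, with sh_NC in grey, sh_SKA3 in red, replicate 1 as filled circles and replicate 2 as open squares. The ratios of CDC27 to its 3 partners of the TPR arm and of ANAPC1 to ANAPC5 lie higher in both sh_SKA3 libraries, and that of ANAPC11 to ANAPC2 lies lower.

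Summed over the 10 members, the level was 122 and 123 FPKM in sh_NC and 131 and 129 FPKM in sh_SKA3. Without CDC27 and ANAPC1, which were left out after their values had been seen, the sum of the other 8 was 99.4 and 99.8 FPKM in sh_NC and 100.5 and 100.5 FPKM in sh_SKA3. CDC27 made up 11.7% and 11.6% of the summed level in sh_NC and 15.1% and 14.4% in sh_SKA3. The median member was at 13.0 and 12.4 FPKM in sh_NC and at 13.0 and 12.7 FPKM in sh_SKA3.

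The promoters were read next, to describe what the members share in sequence with the cell-cycle genes around them. Many genes of late cell cycle carry a CHR element, with the letters TTTGAA, and CCAAT boxes close to the start. The RefSeq promoter windows (GRCh38.p14, 250 bases before to 50 after each start) were searched on both strands for the CHR element, for the CCAAT box and for an E2F-type site, read as TTTGGCGC or as the like run TTTCGCGC. All 10 members had at least 1 window, with 4 windows each for ANAPC10 and ANAPC11. Of the 10 members, 3 held the CHR element, 5 held a CCAAT box, 0 held the E2F-type site, and 0 held both a CHR element and a CCAAT box. Over the 8946 tested genes with a window the shares were 13.1%, 43.6%, 2.48% and 5.56%, and over all 35116 windows they were 15.2%, 34.6%, 1.15% and 5.90%. The CHR element stood in ANAPC1 from base 38 to 43 after the start, in ANAPC7 from -236 and in 1 of the 4 windows of ANAPC10 from -89, where -1 is the last base before the start. A CCAAT box stood in CDC27, CDC16, CDC23, ANAPC5 and ANAPC11. Of 25 genes for APC/C substrates with a window, 8 held the CHR element, 21 held a CCAAT box, 4 held the E2F-type site and 7 held both a CHR element and a CCAAT box.

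The bases before the start are printed for CDC27, the member that rose, for CDC23, the member with most CCAAT matches in 1 window, and for CDC20 and PLK1, a coactivator and a substrate that rose. Each runs 5′ to 3′ on the strand of its gene and ends at the last base before the start, with the CHR element and the CCAAT box, on either strand, in capitals. They are CDC27 at chr17:47189296-47189545 (minus strand), CDC23 at chr5:138213324-138213473 (minus strand), CDC20 at chr1:43358831-43358980 (plus strand) and PLK1 at chr16:23678739-23678888 (plus strand).
CDC27: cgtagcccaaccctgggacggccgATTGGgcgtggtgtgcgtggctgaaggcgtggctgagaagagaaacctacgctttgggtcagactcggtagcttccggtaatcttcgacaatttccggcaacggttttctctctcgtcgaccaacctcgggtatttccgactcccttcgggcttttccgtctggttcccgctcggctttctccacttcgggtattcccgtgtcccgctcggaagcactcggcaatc
CDC23: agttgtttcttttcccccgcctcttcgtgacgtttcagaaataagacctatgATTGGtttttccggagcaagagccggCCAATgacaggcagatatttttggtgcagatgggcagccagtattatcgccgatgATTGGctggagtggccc
CDC20: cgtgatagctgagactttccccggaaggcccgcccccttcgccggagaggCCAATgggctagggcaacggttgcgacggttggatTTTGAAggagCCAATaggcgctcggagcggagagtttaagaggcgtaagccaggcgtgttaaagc
PLK1: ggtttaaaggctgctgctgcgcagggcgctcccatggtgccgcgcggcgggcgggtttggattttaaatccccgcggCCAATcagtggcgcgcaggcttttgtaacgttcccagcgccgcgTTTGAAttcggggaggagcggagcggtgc
CDC27 has 1 CCAAT match, read on the opposite strand, at -226 to -222 from the RefSeq start. The outermost GENCODE start of CDC27, at 47189422, lies upstream of that RefSeq start, inside the printed bases. Those of CDC23, at 138213343, and of CDC20, at 43358955, also lie upstream of their RefSeq starts, inside the printed bases. That of PLK1, at 23677656, lies upstream of its printed bases. The distances of the matches from the start therefore depend on the annotation, and are given here from the RefSeq start. CDC23 has 3 CCAAT matches, at -98, -72 and -17, and did not pass the test. CDC20 has CCAAT boxes from -100 and from -55 around a CHR element from -65, and PLK1 has a CCAAT box from -73 and a CHR element from -29. No match overlaps another in these stretches. CDC20 has a further CHR match on the opposite strand at -178 to -173, outside the printed bases. Of other genes that rose, the E2 enzyme UBE2S has no CHR match and a CCAAT match at -191 to -187. The substrate CCNB2 has a CHR element from -29 and CCAAT boxes, the nearest from -54. Whether these letters go with the rise was not tested. A match is a description of the letters and not of a bound factor.

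The genes around the core subunits were counted in the same fit, where 6.16% of all genes passed as higher and 6.11% as lower. In lists of 2 to 5 genes a count of 0 or 1 says little beside these shares. Of 4 small subunits, 0 passed in either direction, with a median log2 fold change of -0.15. The largest difference among them was that of ANAPC15, a subunit that aids release of the checkpoint complex, at 2.32 and 2.66 FPKM in sh_NC and 2.28 and 1.91 FPKM in sh_SKA3 (log2 fold change -0.17, adjusted p = 0.397, limma). Of 2 coactivators, 1 was higher and 0 lower. CDC20 rose from 63.7 and 62.5 FPKM in sh_NC to 91.4 and 93.0 FPKM in sh_SKA3 (log2 fold change 0.54, SE 0.0524, adjusted p = 0.0114, limma). The ratio of CDC20 to the median core subunit was 4.90 and 5.04 in sh_NC and 7.06 and 7.35 in sh_SKA3.

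Of 3 E2 enzymes, which hand ubiquitin to the substrate, 1 was higher and 0 lower. UBE2S, which extends the ubiquitin chain, was at 87.5 and 93.2 FPKM in sh_NC and at 133 and 140 FPKM in sh_SKA3 (log2 fold change 0.59, SE 0.0621, adjusted p = 0.0129, limma). Of 5 inhibitors, 1 was higher and 0 lower. That was BUB1B, the checkpoint protein BubR1, at 19.2 and 18.2 FPKM in sh_NC and 23.2 and 22.7 FPKM in sh_SKA3 (log2 fold change 0.28, adjusted p = 0.0484, limma). It missed the threshold under median-of-ratios scaling, under quantile normalization and without the variance trend. Of 2 genes for taking the checkpoint complex apart, the ATPase TRIP13 was higher, at 57.5 and 61.1 FPKM in sh_NC and 85.4 and 86.5 FPKM in sh_SKA3 (log2 fold change 0.53, adjusted p = 0.0141, limma), and 0 were lower.

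Of 30 genes for APC/C substrates, 12 passed as higher and 0 as lower, beside 6.16% and 6.11% of all genes. Their median log2 fold change was 0.28, beside 1 of 10 core subunits called higher and a median of 0.05. The 6 with the largest log2 fold change were PLK1 (0.76), BIRC5 (0.71), CCNB1 (0.64), HMMR (0.58), AURKA (0.54) and RRM2 (0.54), which encode the mitotic kinases PLK1 and AURKA, survivin, cyclin B1, a spindle protein and a subunit of ribonucleotide reductase. CCNB1, a textbook substrate, was at 88.9 and 79.3 FPKM in sh_NC and at 134.5 and 129 FPKM in sh_SKA3. These are mRNA levels and do not measure the proteins that the APC/C removes. The substrate list was chosen with earlier results of these data known, and its difference from the core subunits was not tested. The median level in sh_NC was 26.85 FPKM for the substrates and 12.72 FPKM for the core subunits. The part of this level in the counts was not tested.

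**Figure D4:**
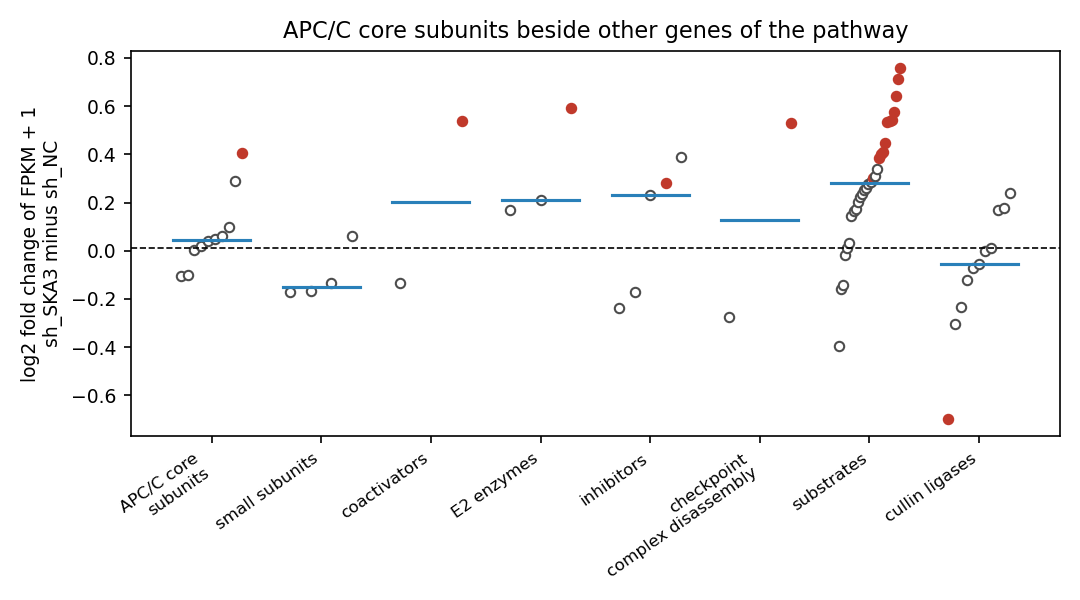
Log2 fold change of FPKM + 1, sh_SKA3 minus sh_NC, for each tested gene of the core subunits and of 7 lists of related genes, filled red where the adjusted p was below 0.05, with list medians in blue and the median of all genes tested as a dashed line. The substrates reach from -0.39 to 0.76 with 12 filled points, whereas the core subunits lie between -0.10 and 0.41 with 1.

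As another family of multisubunit ubiquitin ligases, 11 of 12 genes for cullin-RING ligases passed the filter, of which 0 were higher and 1 was lower, with a median log2 fold change of -0.06. CUL4A, a cullin, fell from 95.2 and 86.4 FPKM in sh_NC to 57.3 and 53.9 FPKM in sh_SKA3 (log2 fold change -0.70, SE 0.0727, adjusted p = 0.0129, limma). Without the filter on low values UBE2S, BUB1B, TRIP13 and CUL4A missed the threshold, and without any 1 library no gene of these lists passed it.

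Some members share sequence with other genes, and the sources used here do not state whether the counting used strand. The last exon of CDC23 overlaps that of KIF20A on the opposite strand over 68 bases, 1.47% of the CDC23 exon bases, and KIF20A was at 33.6 and 30.6 FPKM in sh_NC and 43.8 and 43.4 FPKM in sh_SKA3. ANAPC10 shares 469 exon bases, 10.4% of its own, with ABCE1 on the opposite strand, which was at 19.4 to 20.04 FPKM in every library. On its own strand it shares 1020 bases, 22.6%, with the protein-coding AC098588.1, which was not analysed here, so the low value of ANAPC10 is uncertain. ANAPC11 shares 247 bases, 6.13%, with NPB on its own strand, which was not analysed here, and 62 with ALYREF and 27 with PCYT2 on the other. ANAPC7 shares 683 bases, 11.4%, with the transcript AC144548.1 on its own strand, which was at most 0.179 FPKM. The antisense transcript AC002558.2 that overlaps CDC27 over 126 bases was listed at 0 in every library. ANAPC1 shares 327 bases, 2.34%, with AC017002.6 on its own strand and 144 with AC017002.2 on the other. ANAPC5 shares 249 bases with AC048337.1 on the opposite strand. None of these transcripts of ANAPC1 and ANAPC5 overlaps was analysed here. The pseudogene ANAPC10P1 was listed at 0, and ANAPC1P1 was at most 0.078 FPKM. The pseudogenes CDC27P1, CDC27P2 and CDC27P3 were not analysed here, and whether reads of CDC27 are shared with them was not tested. In GENCODE, the outermost start of a protein-coding gene on the opposite strand lay within 1000 bases of that of 4 members: SSNA1 at 98 bases from ANAPC2, RNF34 at 145 from ANAPC5, ABCE1 at 609 from ANAPC10 and ALYREF at 796 from ANAPC11. None of these 4 neighbours passed the test (log2 fold changes 0.15, -0.03, -0.01 and -0.06, adjusted p from 0.180 to 0.946, limma), nor did their members. These neighbours were named for their position and not for their values.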

How the data were processed

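Total RNA of TU-177 cells was extracted with Trizol, checked for integrity and sequenced (Illumina HiSeq). From these reads the authors deposited 1 table of FPKM values per gene, scaled for gene length and library size. The submitters' processing notes list hg19, HISAT2, Bowtie2 2.2.8, StringTie 1.3.1 and Cuffdiff 2.1.1 without their roles. The gene annotation and strand setting are not given in the sources used here. All 4 value columns were mapped to samples by their titles.

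Symbols, positions and exons came from GENCODE 29 (GRCh38) by Ensembl identifier, which matched 27199 of 28729 genes, and promoter windows from RefSeq (GRCh38.p14). No hg19 coordinates were used. Since 1 read sets the step between FPKM values of a gene, whole reads could be recovered, in 69% of genes above 0 by exon length (tolerance 0.02 reads) and in 97.6% with whole-number proportions between libraries (tolerance 0.001). The same was so for 61.4% and 99.9% of the genes tested. Library sizes were 11966130 and 9015056 reads in sh_NC and 10177854 and 11793604 in sh_SKA3, so that 1 read on 1 kilobase is worth 0.0836 to 0.111 FPKM. The reads recovered on genes added up to more than these sizes, 102.6% to 104.2% of them. The reason was not tested.

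The comparison was sh_SKA3 against sh_NC by limma 3.58.1 in R 4.3.3 (lmFit, eBayes with trend, two-sided) on log2(FPKM + 1), a scale that understates changes of low genes, over 12645 genes with a mean of at least 1 FPKM, without further scaling. P-values were adjusted by Benjamini-Hochberg over all genes tested. Which test the study applied to these libraries is not given in the sources used here. Replicates differed by more than sampling noise (chi-square per degree of freedom 3.92 in sh_NC and 3.79 in sh_SKA3) and were kept apart. On simulated data of 12433 genes for this comparison, 33 of 97 genes changed 1.5-fold and 72 of 96 changed 2-fold were recovered, with 14 false among 119 calls. No change below 1.5-fold was simulated, while the largest among the members was the 1.35-fold of CDC27. Fewer genes were changed in the simulation than the 779 higher and 772 lower called in the data. These shares therefore do not carry over to the members. A member that did not pass is not shown to be unchanged. Alternatives were another pseudocount, filter, scaling, variance model, threshold, a replicate block, leaving out each library, limma voom on recovered reads and a GC and length correction.

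The members and gene lists were chosen with earlier results of these data known. Named were all 10 members, and of each other list the genes past the threshold or, where there was none, the gene with the largest absolute log2 fold change, with at most 6 substrates. Overlapping and neighbouring genes were named for their position. Protein sequences were not used here.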

Additional observations from a re-analysis of the deposited data

How the results depend on the processing

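CDC27 was the member called, and the count of members called higher went from 1 to 0 without the filter on low values, without the variance trend and without any 1 library. It went to 2, with ANAPC1, with the filter raised to 5 FPKM, by limma voom on recovered reads, at an adjusted p below 0.1 and at an unadjusted p below 0.05. The 12 substrates called higher became 3 without the filter, 6 without the trend, 19 by voom, 20 with the GC and length correction, 19 at an adjusted p below 0.1, 20 at an unadjusted p below 0.05 and 0 without any 1 library. With the filter raised to 5 FPKM, 18 of 28 substrates were called higher, beside 993 higher and 887 lower of 7303 genes. With the replicate number as a block, 16 of 30 were called higher. Substrates called lower went from 0 to 1 by voom and 2 at an unadjusted p below 0.05. All genes called, 779 higher and 772 lower, became 48 and 81 without the filter, 312 and 381 without the trend, 1706 and 1532 by voom, 1233 and 1180 with the GC and length correction, 1442 and 1356 at an adjusted p below 0.1 and 2046 and 1912 at an unadjusted p below 0.05. With all libraries kept, inhibitors called were 0 to 3 higher and 0 to 1 lower, and cullin ligases 0 to 2 higher and 0 to 3 lower. The cause of these changes in the counts was not tested.

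Leaving out 1 library, which assumes that the lone library varies like the others, gave 0 to 46 genes higher and 0 to 135 lower, a median of the members between -0.0066 and 0.0578 (negative without sh_NC 2) and a log2 fold change of SKA3 between -1.14 and -1.04, which missed the threshold without sh_NC 1 (adjusted p = 0.0660, limma) and without sh_NC 2 (adjusted p = 0.0600, limma). Among members not called, signs turned when 1 library was left out in ANAPC2 (-0.032 to 0.2256), ANAPC10 (-0.2259 to 0.0172), CDC16 (-0.034 to 0.117), CDC23 (-0.045 to 0.0804), ANAPC4 (-0.0251 to 0.1236) and ANAPC5 (-0.0264 to 0.0324). ANAPC5 was also at -0.0094 with median-of-ratios scaling, -0.0112 with quantile normalization and -0.0177 with the GC and length correction, where ANAPC2 was at -0.0064.

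Deviations of libraries with the same replicate number correlated at 0.0973 over 12645 genes, and the labels give no shared source for a number, so the libraries were not treated as pairs. With the replicate number as a block, 1002 genes were higher and 965 lower, CDC27 was the 1 member called (adjusted p = 0.0316, limma), and 0 members were lower.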
